A study of Mus musculus with 10 samples.

Results

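The proteins of the mitochondrial ribosome (MRPs) are encoded in the nucleus, made by cytosolic ribosomes and imported into mitochondria. Their genes were taken from a ribosome profiling (Ribo-seq) table of the mouse neocortex as every gene whose symbol begins with Mrpl or Mrps followed by a number, which gave 78 of the 22373 genes. Of these, 49 are large subunit (Mrpl) and 29 are small subunit (Mrps) genes by symbol. All 78 passed the filter of 32 estimated counts, summed over the 2 libraries of at least 1 stage, so no member was left out by it. The lowest value of any member in any library was 52. These values are corrected for length, and the number of reads behind them is unknown.

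Ribo-seq captures ribosome-protected mRNA fragments (RPFs, or footprints), so a gene's value reflects the amount of its mRNA and how densely cytosolic ribosomes occupy it. It does not measure the activity of the mitochondrial ribosome itself. Neocortex was dissected from wild-type CD-1 mice at 4 embryonic stages (E12.5, E14, E15.5, E17) and at birth (P0), without treatment of the animals and without selection by sex. Each stage had 2 libraries, each made from pooled brains, and p-values measure only the spread between such pools. In every group the lysate was digested with RNase T1 and RNase A and monosomes were collected without cycloheximide. In bulk tissue, fewer cells of a type and less RNA per cell cannot be told apart.

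The mitochondrial ribosome descends from that of a bacterial ancestor. A large subunit forms peptide bonds and a small subunit decodes the mRNA, around rRNAs transcribed from mitochondrial DNA. Some of its proteins have bacterial counterparts and others were added in mitochondria. Its products are core subunits of the respiratory chain and ATP synthase (oxidative phosphorylation, OXPHOS), which join many nuclear-encoded subunits, so OXPHOS needs both cytosolic and mitochondrial translation.

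The libraries held between 21378041 and 36129988 counts, except for P0 replicate 1 with 7544404. The SD over members of the log2 ratio between replicates was between 0.12 and 0.18 at the embryonic stages and 0.51 at P0, so single P0 values are the least certain. The neocortical neuron markers Neurod6 and Tbr1 were at 73.96 CPM or more in every library. Histone genes took 35.1% and 39.6% of counts at E12.5 but 10.1% and 6.58% at P0. Library sizes were scaled by TMM, which sets the typical gene to no change. Under scaling by total counts alone, the median of all genes itself moved by 0.29 in E15.5 vs E14, 0.40 in E17 vs E12.5 and 0.51 in P0 vs E12.5 on the log2 scale, and changes of the family are therefore given relative to all genes.

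Levels are given as CPM of deposited values that are already corrected for coding length, and are set side by side between genes on that basis. Whether the order of levels still follows coding length was not tested. Mean levels over the 10 libraries ran from 8.85 CPM for Mrps27 to 344.7 for Mrps17, a 39.0-fold range within 1 complex. The 5 highest genes held 27.9% of the family's summed level. They were Mrps17, Mrps33 (288.9), Mrpl20 (199.9), Mrps18c (164.5) and Mrpl52 (157.3). The median member was at 30.3, with 32.3 in the large and 25.9 in the small subunit. All 77 pairs of neighbours in this order overlapped in their ranges over the 10 libraries.

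**Figure D1:**
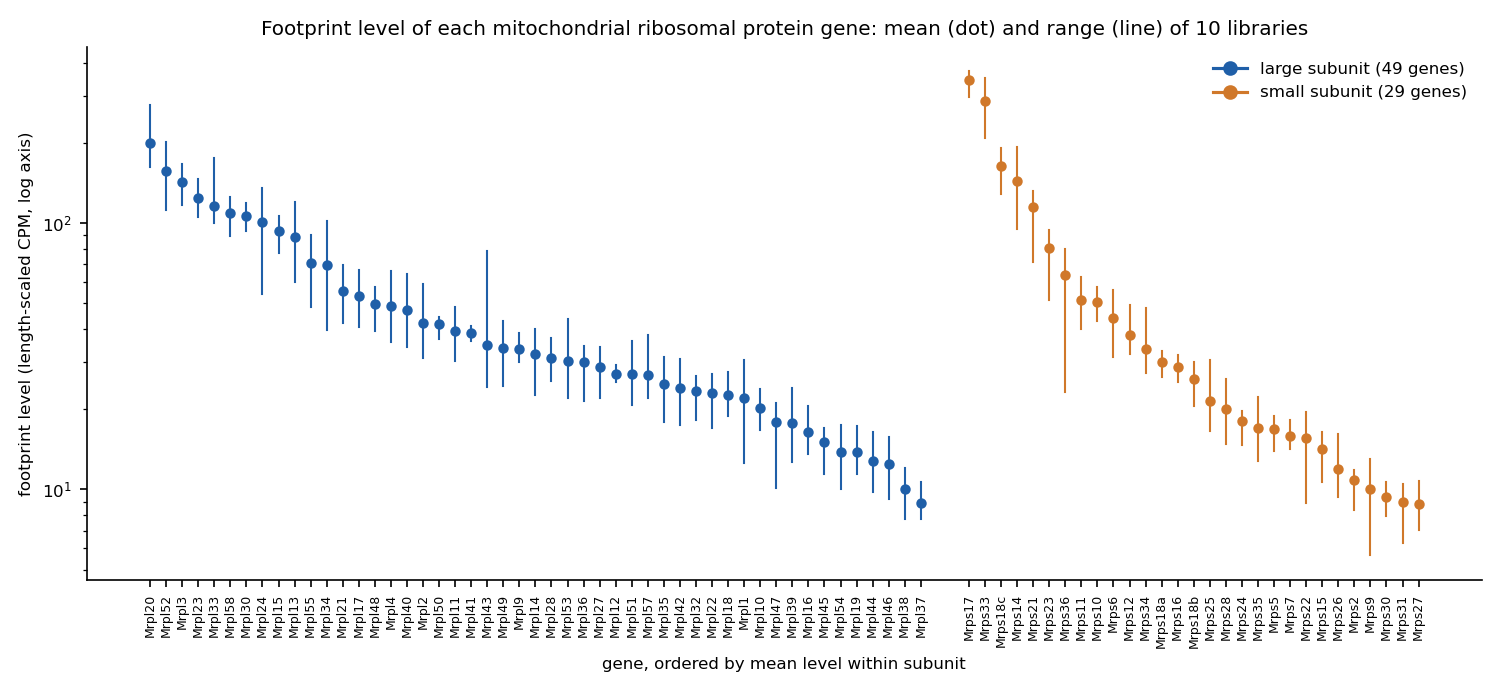
Mean footprint level (dot) and range over the 10 libraries (line) of each MRP gene, in length-scaled CPM on a log axis, with large subunit genes on the left and small subunit genes on the right. Means run from 8.90 to 199.9 CPM in the large and from 8.85 to 344.7 CPM in the small subunit, and the range of Mrpl43 and of Mrps36 is widened by P0 replicate 1.

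Mrps17, the counterpart of a small subunit protein that binds early to the rRNA in bacteria, gave 298.1 and 350.7 CPM at E12.5, 346.9 and 349.8 at E14, then 351.1 and 372.2 at E15.5, 317.0 and 369.1 at E17, and 349.7 and 342.1 at P0. The P0 libraries lay between the E12.5 libraries, and P0 differed from E12.5 by 0.10 ± 0.11 (log2, SE; adjusted p = 0.472). At the other end, Mrps27, a pentatricopeptide repeat protein specific to mitochondria, gave 10.7 and 10.2 CPM at E12.5 and 7.07 and 8.93 at P0. Both P0 libraries were below both E12.5 libraries, but the difference of -0.34 ± 0.13 missed the threshold (adjusted p = 0.0515).

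The promoters of the family were searched for letters of known promoter elements. RefSeq (GRCm38.p6) gave a window from 250 bases before to 50 bases after the start for 69 of the 78 genes and for 10376 of the genes tested, and a gene counted once if any of its starts held the letters on either strand. The ETS core CCGGAAG was in 26 members (37.7%) and in 19.4% of all genes tested, the NRF1 core GCATGCGC in 8 (11.6%) and 5.9%, and the YY1 letters AAGATGGCG in 8 (11.6%) and 3.4%. The GC box GGGCGG was in 34 members (49.3%) and in 68.9% of all genes, and TATAAA in 5 (7.2%) and 9.0%. Cytosolic ribosomal proteins held the ETS core in 24 of 58 genes (41.4%) and OXPHOS genes in 16 of 67 (23.9%). The ETS and YY1 letters can overlap in their shared AAG. Of the 16 members with a promoter that fell from E12.5 to E17, 5 held the ETS core and 3 the NRF1 core, and of the large and small subunit genes 34.9% and 42.3% held the ETS core.

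A head-to-head neighbour, another gene that starts within 1000 bases upstream on the opposite strand, was found for 26 of 69 members (37.7%), 18.9% of all genes tested, 12 of 58 cytosolic ribosomal protein genes and 17 of 67 OXPHOS genes. Mrpl43 is such a gene: its start lies 116 bases from that of Twnk, which encodes the mitochondrial DNA helicase. The stretches shown were chosen for a gene with 2 ETS cores before its start, for a gene with an E17 peak, and for a gene with the NRF1 letters whose footprints fell at E15.5. Capitals mark the ETS core in Mrpl43 (chr19:45006443-45006542, minus strand) and Mrpl52 (chr14:54426809-54426908, plus strand), both from base -100 to -1 before the start, and the NRF1 core, which overlaps its own reverse complement, in Mrpl39 (chr16:84735315-84735414, minus strand, base -170 to -71). A match is a description of these letters and not a binding site.
Mrpl43: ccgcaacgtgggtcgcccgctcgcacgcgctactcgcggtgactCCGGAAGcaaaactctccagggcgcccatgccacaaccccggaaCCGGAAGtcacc
Mrpl52: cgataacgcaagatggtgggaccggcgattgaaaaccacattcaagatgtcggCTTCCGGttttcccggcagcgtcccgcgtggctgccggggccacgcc
Mrpl39: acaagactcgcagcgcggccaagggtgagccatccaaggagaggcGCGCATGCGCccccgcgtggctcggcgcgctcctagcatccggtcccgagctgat
In the stretches shown, Mrpl43 held the ETS core 2 times and Mrpl52 1 time, on the opposite strand. The whole window of Mrpl52 held another just after the start. Mrpl39 held no ETS core in its whole window, and its 2 NRF1 matches share bases.

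The first question was whether the family as a whole moved across neurogenesis. Summed over the 78 genes, the level was 4186 and 4406 CPM at E12.5, 4365 and 4374 at E14, then 4124 and 4092 at E15.5, 3982 and 4017 at E17, and 3968 and 3841 at P0. Every E17 and P0 library was below every E12.5 and E14 library, with stage means of 4370 at E14 and 3904 at P0. This direction rests on TMM scaling. As a share of all counts the family was higher at P0, with 0.484% and 0.451%, than at E12.5, with 0.356% and 0.356%. For scale, the 79 cytosolic ribosomal protein genes summed to 81530 and 79090 CPM at E12.5 and 52370 and 55640 at P0, while the 85 nuclear OXPHOS genes summed to 20310 and 19970 CPM at E12.5 and 20010 and 20770 at P0. The MRP sum thus differed less between stages than that of the cytosolic ribosome, and in no comparison did a member reach a 2-fold change, the largest being 0.9958 on the log2 scale for Mrpl24. Of all 13484 genes tested, 33.7% differed by at least 2-fold in E17 vs E12.5 and 42.2% in P0 vs E12.5.

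From E12.5 to E14, limma-voom called 0 members lower and 0 higher (background over all genes 0.141% lower and 0.497% higher). At an unadjusted p under 0.05, 2 were lower and 1 was higher, and edgeR and DESeq2 also called 0. The median member change was -0.01 (log2), beside -0.0015 for all genes. From E15.5 to E17 again 0 members were called in either direction (background 3.43% lower and 5.61% higher), with 3 lower and 0 higher at an unadjusted p under 0.05 and 0 by edgeR and DESeq2.

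The step from E14 to E15.5 was the only one between adjacent embryonic stages with member calls. Of the 78 genes, 6 were lower (7.7%, against a background of 19.6%) and 0 higher (background 16.5%). No member was higher at an unadjusted p under 0.05 either, nor by edgeR or DESeq2. The median member change was -0.13, beside -0.0086 over all genes, with 57 of 78 fitted values below 0. The median was -0.14 in the large and -0.07 in the small subunit. Cytosolic ribosomal proteins had a median of -0.42 in the same step, with 45 of 79 called lower, and the 81 OXPHOS genes tested had a median of -0.05, with 3 called lower. Under total-count scaling the member calls were 1 lower and 11 higher, with the family median still 0.12 below that of all genes. The same scaling called 1653 of all 13484 genes lower and 4404 higher.

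The 6 genes that fell in this step were Mrpl54, Mrpl2, Mrpl39, Mrpl40, Mrpl17 and Mrps25, that is 5 large subunit genes and 1 small. Mrpl54, specific to mitochondria, fell the most: it gave 17.1 and 16.9 CPM at E14 and 10.1 and 10.1 at E15.5 (-0.75 ± 0.15, adjusted p = 0.00485), but was again at 16.1 and 12.53 at P0. Mrpl40 was at 49.6 and 50.4 CPM at E14 and at 34.2 and 40.2 at E15.5 (-0.43 ± 0.14, adjusted p = 0.0399), a call kept in 12 of 21 alternatives. Mrpl17, the counterpart of a bacterial protein near the exit of the peptide tunnel, was at 62.5 and 66.9 CPM and then at 48.9 to 49.4 (-0.40 ± 0.11, adjusted p = 0.0211). In all of these genes both E15.5 libraries lay below both E14 libraries. Fewer members were called lower without any 1 of the E14 or E15.5 libraries, and more without either P0 replicate. The number of genes called lower over all genes moved the same way. With 1 library left out, the family's median relative to all genes lay between -0.13 and -0.097.

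Tissue composition moved in the same step. Of 10 choroid plexus markers, all 8 tested were lower, and their summed level was 1168 and 1176 CPM at E14 and 15.2 and 12.4 at E15.5. All 10 meningeal fibroblast markers were lower (73.8 and 81.7 CPM, then 5.57 and 5.62), as were all 10 markers of cycling cells (902.6 and 897.0, then 472.3 and 463.6) and 6 of 9 red blood cell genes tested (11060 and 10040, then 7422 and 6906). Among the tested markers of both lists, Aqp1 was at 0 in E15.5 replicate 2, and no other was at 0 at either stage. The summed level of 10 ganglionic eminence markers, in contrast, was 69.3 and 57.5 CPM at E14 and 153.2 and 147.2 at E15.5, with 6 called higher. The part of these cells in the MRP changes was not tested.

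**Figure D2:**
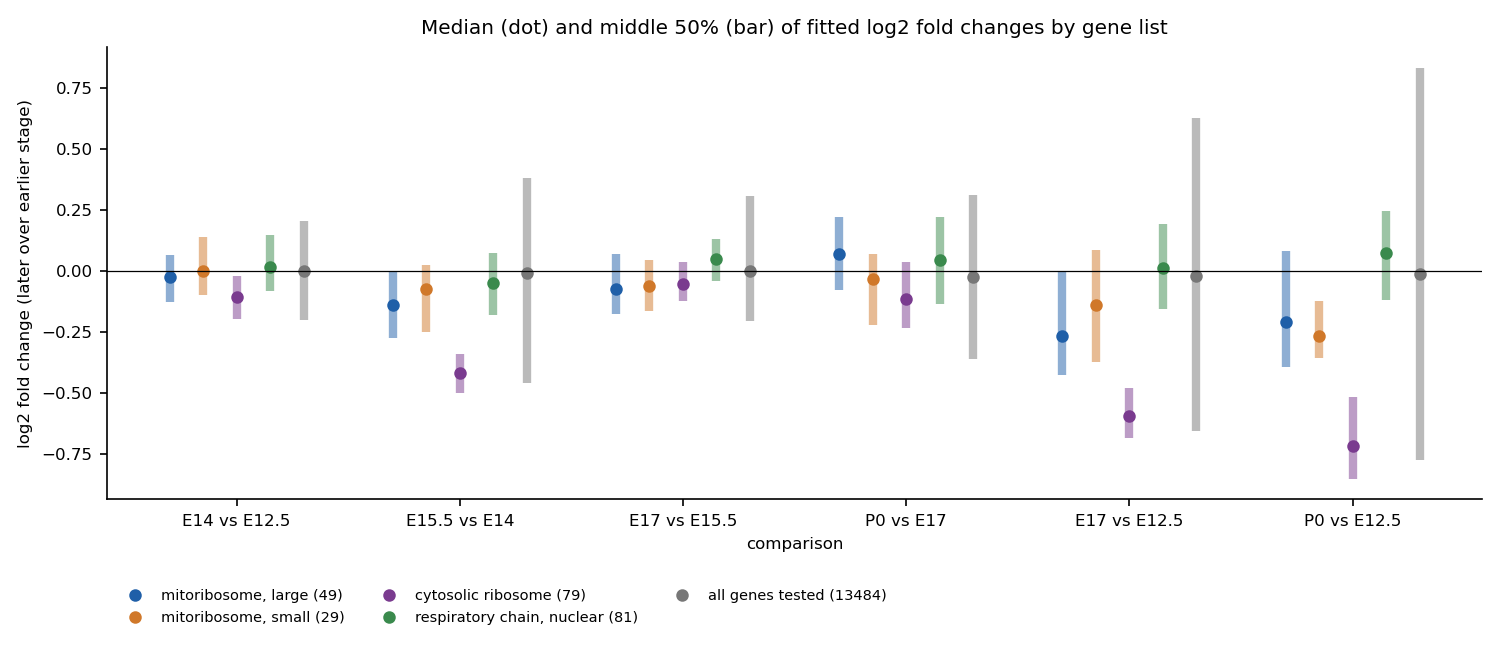
Median (dot) and middle 50% (bar) of the fitted log2 fold changes in 6 stage comparisons for large and small subunit MRP genes, cytosolic ribosomal protein genes, nuclear OXPHOS genes and all genes tested, with the later stage over the earlier. In E17 vs E12.5 the medians were -0.27 and -0.14 for the large and small mitoribosomal subunit, -0.59 for the cytosolic ribosome and 0.01 for OXPHOS genes.

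Over the whole embryonic series, from E12.5 to E17, 22 members fell (28.2%, against a background of 27.8%) and 2 rose (2.6%, against a background of 26.9%). In the fit of all 10 libraries, the share of falling members was thus close to that of all genes, and the share of rising ones was below it. The family's median change was -0.23, and the middle 50% of members lay between -0.41 and 0.05, while for all genes the median was -0.02 and the middle 50% lay between -0.66 and 0.63. The SD over members was 0.31, against 1.36 over all genes. The family lay between the other lists: 62 of 79 cytosolic ribosomal proteins fell, while 5 of 81 OXPHOS genes fell and 8 rose. Calls depended on single libraries, over members and over all genes. Fewer were made in both directions without any 1 of the E12.5, E15.5 or E17 libraries, and more without either P0 replicate. The family's median relative to all genes was -0.21 with all libraries. It was -0.20 without E12.5 replicate 1, -0.21 without E12.5 replicate 2, -0.20 without E17 replicate 1 and -0.17 without E17 replicate 2. Markers moved here as well: all 10 of cycling cells, 9 of 10 of meninges, 7 of 8 tested of choroid plexus and 7 of 9 tested of red blood cells were lower at E17, while 8 of 10 of ganglionic eminence were higher, and their part was not tested. Under total-count scaling the split was 2 lower and 21 higher, with the family median 0.21 below that of all genes, as under TMM. Of all 13484 genes, 2147 were called lower and 5885 higher under that scaling.

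Between the subunits, 17 of 49 large subunit genes (34.7%) and 5 of 29 small subunit genes (17.2%) fell from E12.5 to E17, and the 2 that rose were both in the large subunit. The median change was -0.27 in the large and -0.14 in the small subunit, and -0.27 and -0.15 when Mrps18a and Mrps30, which sit in the large subunit, were moved there and Mrps36, which is now known as part of the 2-oxoglutarate dehydrogenase complex, was left out. The middle 50% of the subunits overlapped widely, from -0.43 to -0.01 and from -0.37 to 0.09. Without E17 replicate 2 the small subunit's median was -0.08, and without E12.5 replicate 1 it was -0.19. At P0 the order of the medians was the reverse, with -0.21 in the large and -0.27 in the small subunit relative to E12.5. That order rested on P0 replicate 1: without it the medians were -0.21 and -0.16, and without P0 replicate 2 they were -0.04 and -0.27. The ratio of summed large to small subunit levels was 1.51 and 1.41 at E12.5, 1.38 and 1.41 at E14, then 1.34 and 1.33 at E15.5, 1.39 and 1.36 at E17, and 1.78 and 1.42 at P0. All 4 E15.5 and E17 libraries were below both E12.5 libraries in this ratio. The difference of the subunits' median levels, large minus small on the log2 scale, did not follow it, with 0.30 and 0.21 at E12.5, 0.40 and 0.58 at E17, and 0.53 and 0.21 at P0. A test of the difference between subunits was not run.

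From E12.5 to P0, 18 members fell (23.1%, against a background of 32%) and 5 rose (6.4%, against a background of 30.1%), and the family median was -0.23. Cytosolic ribosomal proteins had a median of -0.72, with 69 of 79 called lower, and OXPHOS genes had a median of 0.08, with 6 of 81 lower and 8 higher. The number of calls changed with the library left out, over members and over all genes, and not always in the same direction. The family's median relative to all genes was -0.24 without E12.5 replicate 1, -0.16 without E12.5 replicate 2 and -0.22 without P0 replicate 1. Without P0 replicate 2 the family's median relative to all genes was -0.07 in place of -0.21. Under total-count scaling 3 members were lower and 27 higher. The same scaling called 2506 of all 13484 genes lower and 6446 higher. The cycling cell markers summed to 1268 and 1291 CPM at E12.5 and to 138.8 and 159.8 at P0, the red blood cell genes to 11210 and 11610 and then to 1862 and 1439. Markers of meninges (9 of 10) and choroid plexus (7 of 8 tested) were also lower at P0, and those of ganglionic eminence (9 of 10) were higher. The part of these cells was not tested. In P0 vs E17, the last step, 2 members were lower (2.6%, background 11.1%) and 1 was higher (1.3%, background 9.46%).

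The F test across the 5 stages, which has no fold threshold, passed 22 of 78 members (28.2%), against a background of 63.8% of all genes. In the large subunit 18 of 49 passed (36.7%) and in the small subunit 4 of 29 (13.8%), namely Mrps14, Mrps25, Mrps26 and Mrps33, which were named after their values were seen. For comparison, 67 of 79 cytosolic ribosomal proteins and 16 of 81 OXPHOS genes passed. Leaving out any 1 embryonic library lowered the count of members and that of all genes. Leaving out either P0 replicate raised the count of members and that of all genes. The share of members stayed below the share of all genes in both fits.

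**Figure D3:**
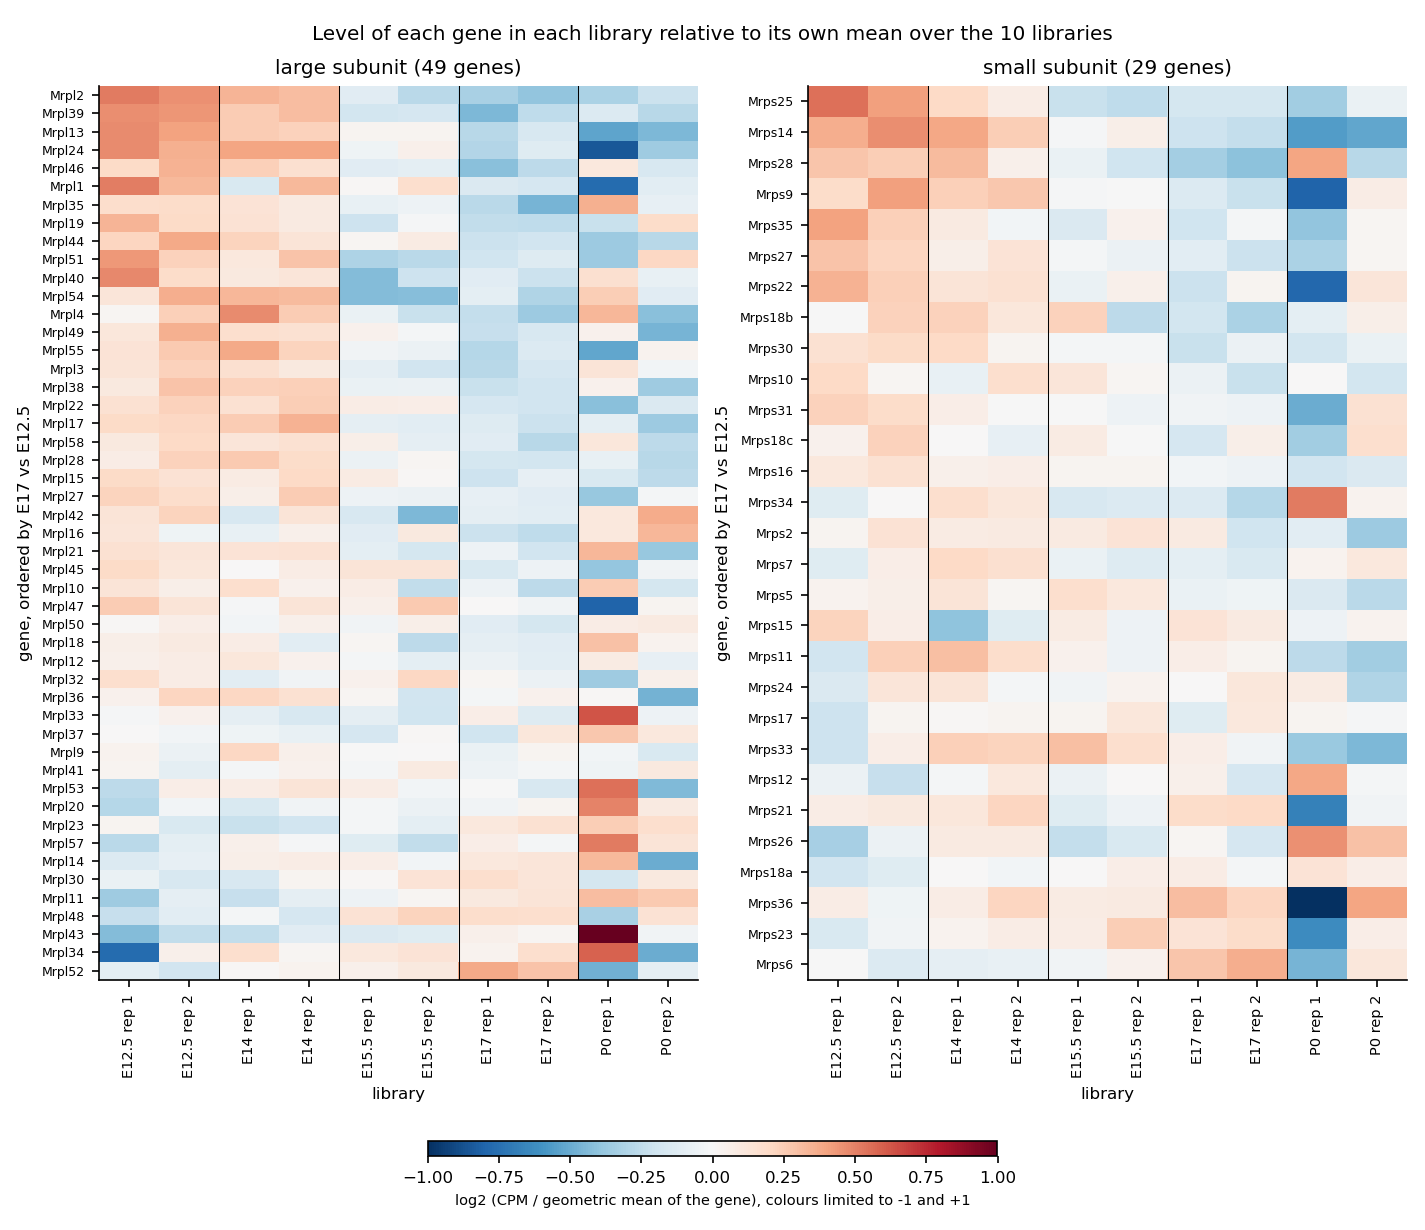
Level of each MRP gene in each of the 10 libraries as log2 of its CPM over its own geometric mean, with large subunit genes on the left and small subunit genes on the right, ordered by E17 vs E12.5. Colours stop at -1 and 1. Genes at the top, such as Mrpl2 and Mrps25, are above their mean at E12.5 and below it from E15.5 on, Mrpl52 at the bottom peaks at E17, and P0 replicate 1 differs from replicate 2 in many genes.

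In E17 vs E12.5, 28 members differed from the family median by more than 2 of their own SE, 11 below and 17 above, and in P0 vs E12.5 the numbers were 8 and 20. The genes furthest below were Mrpl2, Mrpl39, Mrpl13, Mrps25 and Mrps14 in the first comparison, and Mrpl24, Mrps14, Mrpl13, Mrpl1 and Mrpl2 in the second. These comparisons share their E12.5 libraries and are given side by side. Distance from the family median is a description and was not tested. The share of all genes at such a distance was not counted. All genes were spread more widely, with an SD of 1.36 against 0.31 over members in E17 vs E12.5.

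Mrpl2 (chr17:46646172-46650132, RefSeq, GRCm38.p6) is the counterpart of a bacterial protein at the catalytic core of the large subunit. It gave 58.9 and 56.2 CPM at E12.5, 51.9 and 50.8 at E14, then 38.0 and 34.0 at E15.5, 32.8 and 31.3 at E17, and 33.0 and 35.4 at P0. All 6 libraries from E15.5 on were below the 4 earlier ones, and the gene fell from E14 to E15.5 (-0.51 ± 0.10, adjusted p = 0.00444). E17 was below E12.5 by -0.84 ± 0.10 (adjusted p = 0.000168) and P0 by -0.74 ± 0.10 (adjusted p = 0.000277). Mrpl39 (chr16:84718281-84735244), whose upstream NRF1 letters are shown with the promoters, is specific to mitochondria. It had the same shape at a lower level, with 24.0 and 23.6 CPM at E12.5, 20.8 and 21.5 at E14, then 15.3 and 15.45 at E15.5, 12.7 and 14.6 at E17, and 15.8 and 14.3 at P0. Its change was -0.46 ± 0.11 in E15.5 vs E14 (adjusted p = 0.0109) and -0.81 ± 0.11 in E17 vs E12.5 (adjusted p = 0.000356).

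Mrpl13 and Mrps14 had lower levels at each stage up to P0. Mrpl13 (chr15:55534095-55557312), whose bacterial counterpart joins the large subunit early in assembly, gave 120.2 and 114.5 CPM at E12.5, 103.1 and 101.8 at E14, then 88.3 and 88.4 at E15.5, 71.4 and 77.5 at E17, and 60.2 and 63.4 at P0. No stage overlapped the one before it, and the gene fell in both comparisons with E12.5. P0 was below E12.5 by -0.92 ± 0.09 (adjusted p = 4.48e-05). Mrps14 (chr1:160195215-160201186), the counterpart of a protein in the head of the small subunit, gave 180.2 and 193.4 CPM at E12.5, 183.1 and 166.0 at E14, then 138.7 and 145.5 at E15.5, 121.4 and 118.7 at E17, and 95.0 and 97.3 at P0. E12.5 and E14 overlapped, and no later stage overlapped the one before it. It fell by 0.96 ± 0.09 on the log2 scale from E12.5 to P0 (adjusted p = 4.38e-05), the smallest adjusted p of any member in that comparison, and kept the call in all 20 alternative analyses.

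Mrpl24 (chr3:87918131-87923450), the counterpart of a bacterial protein that starts large subunit assembly, had the largest fitted fall at P0. It gave 135.5 and 125.1 CPM at E12.5, 128.2 and 128.0 at E14, then 94.6 and 100.9 at E15.5, 79.5 and 89.5 at E17, and 54.1 and 76.3 at P0. The P0 pools differed from each other, but both were below every earlier library (-0.996 ± 0.15 from E12.5, adjusted p = 0.000632). Mrpl1, which in bacteria forms a mobile stalk at the tRNA exit, was at 30.6 and 26.8 CPM at E12.5 and at 12.6 and 20.0 at P0 (-0.78 ± 0.22, adjusted p = 0.0156). Of the small subunit, Mrps25 (chr6:92169512-92184023), specific to mitochondria, gave 30.8 and 27.9 CPM at E12.5, 24.1 and 22.1 at E14, then 18.0 and 17.6 at E15.5, 18.5 and 18.6 at E17, and 16.5 and 20.1 at P0. It fell by 0.66 ± 0.12 from E12.5 to E17 (adjusted p = 0.00165), with a fall of 0.37 ± 0.12 in E15.5 vs E14 (adjusted p = 0.0374).

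The genes furthest above the family median in E17 vs E12.5 were Mrpl52, Mrps6, Mrpl48, Mrpl11 and Mrpl30, of which Mrpl52 and Mrpl11 passed the test. Mrpl52 (chr14:54426909-54429750), a large subunit protein specific to mitochondria, gave 145.2 and 135.9 CPM at E12.5, 156.8 and 159.2 at E14, then 161.0 and 166.6 at E15.5, 201.5 and 189.3 at E17, and 111.6 and 145.7 at P0. Both E17 libraries were above all others. It rose from E12.5 to E17 (0.48 ± 0.13, adjusted p = 0.0119) and fell from E17 to P0 (-0.60 ± 0.13, adjusted p = 0.0142), the largest called change of any member in the last step. Mrps6, the counterpart of a bacterial protein at the platform of the small subunit, had a similar course without passing the test: 43.3 and 39.6 CPM at E12.5, 52.8 and 56.0 at E17, and 31.5 and 47.2 at P0 (0.39 ± 0.16 in E17 vs E12.5, adjusted p = 0.0733). Mrpl48 (0.34 ± 0.15, adjusted p = 0.0819) and Mrpl30 (0.26 ± 0.12, adjusted p = 0.102) also missed the threshold.

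Mrpl11 (chr19:4962152-4966995), whose bacterial counterpart lies at the base of the stalk that receives translation factors, gave 30.5 and 36.8 CPM at E12.5, 33.3 and 36.8 at E14, then 37.7 and 39.7 at E15.5, 41.8 and 42.7 at E17, and 48.4 and 46.8 at P0. E12.5 and E14 overlapped, and from E15.5 on no stage overlapped the one before. It rose by 0.33 ± 0.11 from E12.5 to E17 (adjusted p = 0.0363) and by 0.50 ± 0.12 from E12.5 to P0 (adjusted p = 0.00526). The first of these calls was kept in 12 of 21 alternatives and the second in 19 of 20.

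The other genes that rose from E12.5 to P0 were Mrpl43, Mrps26, Mrpl57 and Mrpl20. Mrps26, specific to mitochondria, was at 9.35 and 11.3 CPM at E12.5, 11.9 and 10.5 at E17, and 16.1 and 14.4 at P0 (0.54 ± 0.13, adjusted p = 0.00732). Mrpl57, also specific to mitochondria, was at 22.1 and 24.8 CPM at E12.5 and at 38.1 and 29.1 at P0 (0.48 ± 0.14, adjusted p = 0.0169). Mrpl20, whose bacterial counterpart is needed for early large subunit assembly, was at 162.9 and 194.1 CPM at E12.5 and at 278.9 and 210.9 at P0 (0.44 ± 0.14, adjusted p = 0.0265). In all of these both P0 libraries were above both E12.5 libraries. Mrpl43 had the largest fitted rise, and the stretch before its start is shown with the promoters (0.88 ± 0.34, adjusted p = 0.0492) but rested on 1 library: it gave 24.3 and 27.7 CPM at E12.5, 34.0 and 33.2 at E17, and 78.5 and 32 at P0, and its call was kept in 6 of 20 alternatives, with values from 0.30 to 1.63.

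**Figure D4:**
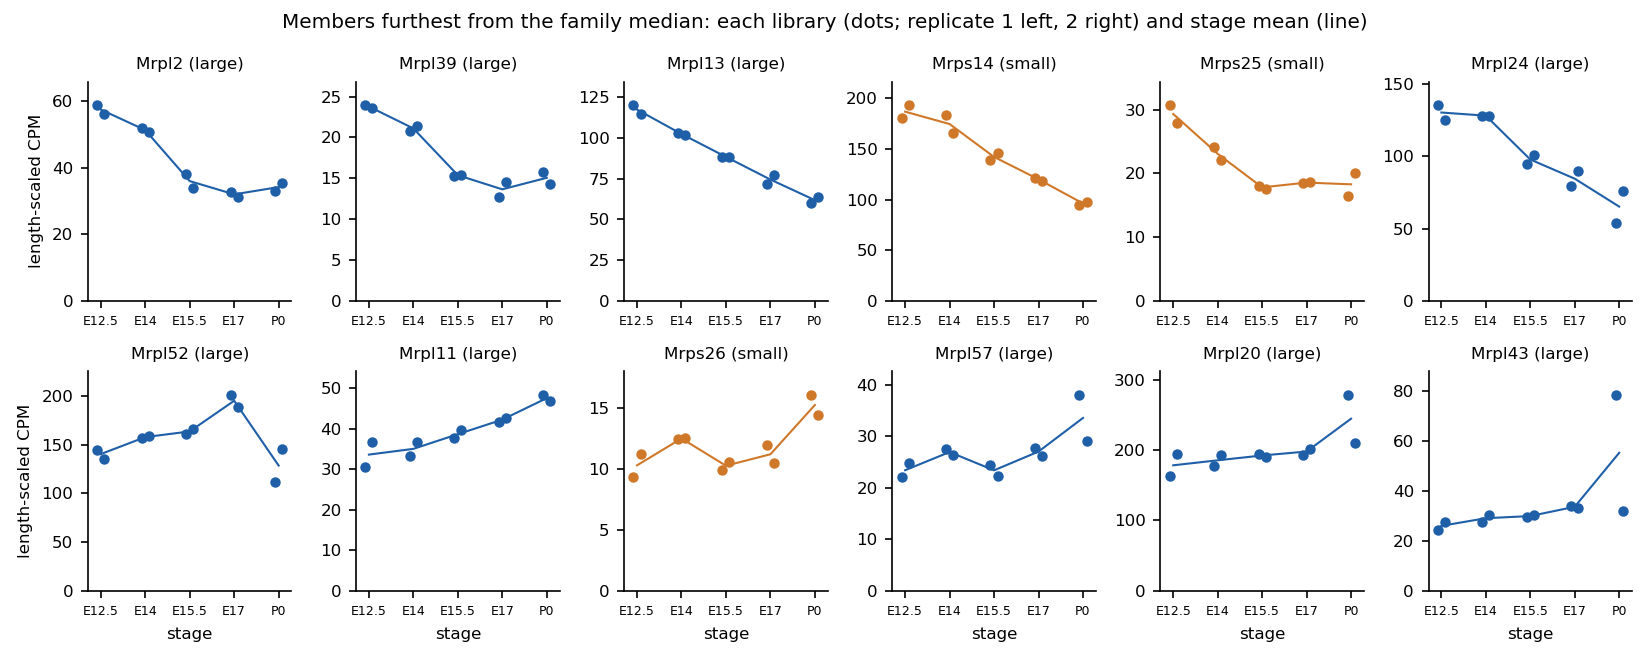
Length-scaled CPM, by stage, of 12 of the MRP genes furthest from the family median in E17 or P0 vs E12.5. Each panel has 1 dot per library (replicate 1 left, replicate 2 right) and a line through the stage means, on axes that start at 0. Mrpl1, Mrps6, Mrpl48 and Mrpl30, also among the furthest, are not shown. The upper row holds genes that fell, such as Mrps14 from 180.2 and 193.4 CPM at E12.5 to 95.0 and 97.3 at P0, and the lower row genes that rose in at least 1 comparison, where the P0 pools of Mrpl43 read 78.5 and 32.

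In the last step, P0 vs E17, Mrps33 fell besides Mrpl52. Mrps33, specific to mitochondria and the member with the second highest level, was at 298.1 and 278.6 CPM at E17 and at 219.9 and 209.0 at P0 (-0.43 ± 0.11, adjusted p = 0.0324). Mrpl16, the counterpart of a bacterial protein next to the tRNA binding sites of the large subunit, was the only gene that rose, from 14.04 and 13.6 CPM to 17.5 and 20.5 (0.48 ± 0.13, adjusted p = 0.0347). The calls of Mrps33 and Mrpl16 were each kept in 8 of 20 alternatives. Without either P0 replicate more members were called in both directions in this step, and so were more of all genes. Without either E17 replicate no member was called, and fewer of all genes were. The 1 higher call was also lost without either E12.5 replicate, either E14 replicate or E15.5 replicate 1. Fewer members were lower without any 1 of the E14 or E15.5 libraries. In all of these fits fewer of all genes were called as well. Mrps36 differed most between the P0 pools, with 23.2 and 80.0 CPM against 75.4 and 70.9 at E17, and was named after its values were seen.

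The 3 paralogues of Mrps18 occupy different places in the mitochondrial ribosome: Mrps18c takes the bacterial site, Mrps18b another site of the small subunit, and Mrps18a a site of the large subunit. Mrps18c was at 168.7 and 192.3 CPM at E12.5, 145.9 and 170.2 at E17, and 128.7 and 183.9 at P0. Mrps18b was at 25.7 and 30.2, 22.6 and 20.6, and 24.0 and 26.8 CPM in the same stages. Mrps18a was at 26.4 and 27.8, 31.8 and 29.7, and 33.2 and 31.7 CPM. Mrps18c thus had by far the highest level at every stage, and none of the paralogues was called: their changes from E12.5 to P0 were -0.22 ± 0.17 (adjusted p = 0.288), -0.13 ± 0.17 (adjusted p = 0.549) and 0.25 ± 0.09. For Mrps18a the adjusted p was 0.0447, but the change was under the 0.322 on the log2 scale that a call requires.

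Mitoribosomal proteins with other symbols were read beside the family. Of 5 found, Gadd45gip1 fell from 27.3 and 25.4 CPM at E14 to 16.1 and 15.6 at E15.5 (-0.73 ± 0.13, adjusted p = 0.00346). Dap3, a GTP-binding protein of the small subunit, rose from 67.8 and 64.6 CPM at E12.5 to 99.2 and 93.1 at P0 (0.54 ± 0.09, adjusted p = 0.00128). Ptcd3, a pentatricopeptide repeat protein at the mRNA channel, fell from 27.2 and 26.6 CPM to 17.1 and 21.7 (-0.45 ± 0.12, adjusted p = 0.0114), a direction that was reversed under total-count scaling. Chchd1 and Aurkaip1 were not called in P0 vs E12.5.

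Genes that serve the mitochondrial ribosome were read in P0 vs E12.5, where 32% of all genes were called lower and 30.1% higher. Of 16 translation factors, 5 fell and 0 rose, with a median of -0.23. The falling share was near the background of 32%, and the rising share was below that of 30.1%. The largest falls were those of 2810006K23Rik, the gene of the rescue factor Mtrfr (-1.05 ± 0.15, adjusted p = 0.00044), Gfm2, which recycles the ribosome (-0.97 ± 0.16, adjusted p = 0.00102), and Guf1 (-0.74 ± 0.23, adjusted p = 0.0209). Of 27 assembly and rRNA modification genes, 7 fell and 3 rose, with a median of 0.07, both shares below the background of 32% and 30.1%. Tfb1m, which dimethylates the small subunit rRNA, fell from 3.91 and 3.93 CPM at E12.5 to 0.653 and 1.69 at P0 (-1.43 ± 0.29, adjusted p = 0.00258), and Gtpbp10, a GTPase of large subunit assembly, fell by 1.13 ± 0.29 (adjusted p = 0.00873). Mrm1, a methyltransferase of the large subunit rRNA, rose from 1.43 and 1.91 to 4.68 and 3.72 CPM (1.22 ± 0.22, adjusted p = 0.00147).

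Of 15 genes of mitochondrial DNA maintenance and transcription, 5 fell and 1 rose from E12.5 to P0, with a median of -0.34. The falling share was near the background of 32%, and the rising share was below that of 30.1%. Ssbp1, which binds single-stranded mitochondrial DNA, fell from 223.7 and 191.5 CPM to 52.1 and 76.1 (-1.69 ± 0.16, adjusted p = 4.52e-05), more than any member of the MRP family. Tfam, which packages mitochondrial DNA, fell from 97.9 and 83.3 CPM to 31.8 and 66.3 (-0.91 ± 0.28, adjusted p = 0.0205), with the lower value in P0 replicate 1. Pnpt1, a ribonuclease of mitochondrial RNA, fell by 0.90 ± 0.26 (adjusted p = 0.0167), a call kept in 13 of 19 alternatives. The 13 protein-coding genes of mitochondrial DNA, the products of the mitochondrial ribosome, were listed at 0 in all libraries, so their footprints were not analysed here.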

How the data were processed

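Ribo-seq libraries of mouse neocortex at 5 stages, 2 pools each, were analysed from the deposited table of 22373 genes. Per the study's methods, footprints were aligned with STAR (version 2.7.0 in the submitters' processing notes), apportioned to isoforms with DeepShape-prime and summarised per gene with tximport, corrected for length; multi-mapping reads were kept. The deposited values are such estimated counts: whole numbers that, within each library, are proportional to the study's length-corrected expression values. They are therefore not raw reads, the read number behind a value is unknown, and no counting interval is given. They were used as count data. The genome build is not named in the table, and coordinates come from RefSeq (GRCm38.p6) by symbol. Of the gene identifiers, 22274 matched a symbol.

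Genes with at least 32 counts summed over the 2 libraries of at least 1 stage were kept (13484). Counts were scaled by TMM (edgeR 4.0.16) and fitted with limma-voom (limma 3.58.1, R 4.3.3), 1 coefficient per stage over 10 libraries. Two-sided moderated tests were adjusted by Benjamini-Hochberg over all genes kept. A call needed an adjusted p under 0.05 and a log2 fold change of at least 0.322 in either direction. The F test covered the contrasts against E12.5. Fold changes are given as fitted log2 value ± SE, levels as CPM of TMM-scaled library sizes. All columns were used.

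1 marker gene is not reported here. Subunit follows the symbol. No member lay within 5% of another gene's values in every library. The members, lists, markers and rules were chosen with earlier results of these data known. Genes were named by rule: per comparison, up to 5 called in each direction; in E17 and P0 vs E12.5, the extremes of each subunit and up to 5 on each side over 2 SE from the family median; the highest and lowest level; the Mrps18 paralogues; and up to 3 called genes of each other list. The code was tested on simulated data. Alternatives were other scalings, tests (edgeR quasi-likelihood, DESeq2 1.42.0), filters, sample weights, a 2-stage fit, a replicate block and leaving out each library.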

Additional observations from a re-analysis of the deposited data

How the results depend on the processing

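All comparisons kept the family at or below the median of all genes or within 0.06 of it on the log2 scale under every scaling, test and filter run, and the cause of each change listed was not tested. Total-count scaling gave 1 lower and 11 higher in E15.5 vs E14, 2 and 21 in E17 vs E12.5, 3 and 27 in P0 vs E12.5, 1 and 6 in P0 vs E17, and 35 by the F test. Over all 13484 genes this scaling called 1056 lower and 1828 higher in P0 vs E17, and 9373 passed the F test. Total counts outside histone genes gave 1 higher in E17 vs E12.5, 3 higher in P0 vs E12.5 and 1 lower in P0 vs E17. Over all 13484 genes the same counts were 3337, 3886 and 1392. DESeq2 gave 1 higher in E17 vs E12.5 and 3 higher in P0 vs E17, beside 3255 and 1114 over all 13484 genes. DESeq2 size factors and edgeR each gave 2 higher in P0 vs E17, beside 1385 and 1111 over all 13484 genes. Sample quality weights gave 10 lower in E15.5 vs E14, 4 higher in E17 vs E12.5, 10 lower in P0 vs E12.5, 1 lower and 0 higher in P0 vs E17, and 37 by the F test. Over all 13484 genes the same counts were 3416, 4094, 2986, 300 and 398, and 9302. A mean of at least 100 counts gave 10 lower in E15.5 vs E14, 1 higher in E17 vs E12.5 and 2 higher in P0 vs E17. Over the 9215 genes tested with this filter the same counts were 1687, 2644 and 915. With no filter beyond 1 count, 19369 genes were tested, and the family median relative to all genes was -0.058 in E15.5 vs E14, -0.044 in E17 vs E12.5, -0.11 in P0 vs E17 and -0.29 in P0 vs E12.5, with 1 higher in E17 vs E12.5 and 0 higher in P0 vs E17. The last 2 counts were 3632 and 1139 over all genes. Fits of only the 2 stages gave 10 lower in E15.5 vs E14, 5 higher in E17 vs E12.5, 7 lower and 0 higher in P0 vs E12.5, and 0 and 0 in P0 vs E17. Over all genes the first 3 comparisons gave 3280 of about 12730, 4067 of about 12970, and 3036 and 2963 of about 13290. In P0 vs E17 this fit called 0 of all genes in either direction, so it does not set the family apart. Without the P0 libraries, an alternative chosen after seeing the data, 10 were lower in E15.5 vs E14, 5 higher in E17 vs E12.5, 1 higher in E17 vs E15.5 and 1 lower in E14 vs E12.5. Over about 13120 genes tested the same counts were 3267, 4200, 1764 and 455.

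Leaving out each library in turn gave 0 to 1 lower in E14 vs E12.5, 2 to 10 lower in E15.5 vs E14, 8 to 28 lower and 0 to 5 higher in E17 vs E12.5, 11 to 26 lower and 2 to 13 higher in P0 vs E12.5, 0 to 10 lower and 0 to 16 higher in P0 vs E17, and 12 to 52 by the F test. The number of calls over all genes changed with the library left out as well. The family median relative to all genes lay between -0.24 and -0.068 in P0 vs E12.5. Without E12.5 replicate 2 the change of Mrps17 was 0.21, and without P0 replicate 2 that of Mrps18c was -0.45. A stage left with 1 library was assumed to vary like the others.

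Replicate numbers did not pair the samples in a uniform way: correlations of same-numbered deviations ran from -0.65 (E12.5 with P0) to 0.28 (E14 with P0). At E12.5 and P0, replicates of the same number thus tended to deviate in opposite directions. What they share was not tested. With replicate number as a block (replicate block), 4 members were lower in E15.5 vs E14, 20 lower and 2 higher in E17 vs E12.5, 16 lower and 4 higher in P0 vs E12.5, 1 lower and 0 higher in P0 vs E17, and 19 passed the F test. Over all 13484 genes the same counts were 2475, 3610 and 3510, 4117 and 3900, 1139 and 985, and 8057.

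Of named genes, directions were reversed under total-count scaling for Mrps27 (0.19), Mrps18b (0.40), Mrps18c (0.32) and Ptcd3 (0.082), without P0 replicate 1 for Mrps18c (0.032) and without E12.5 replicate 1 for Mrps17 (-0.022), all in P0 vs E12.5. Of 37 named calls, 13 were kept in every alternative. CPM per kilobase was not run, since the values are already per length. The 2 libraries of a stage, and the low depth of P0 replicate 1, limit the precision at P0.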
